A study of Mus musculus with 12 samples.

Results

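The 9 genes described here, Csf1r, C1qa, C1qb, C1qc, Aif1, P2ry12, Tmem119, Cx3cr1 and Trem2, are markers of microglia, and they were taken by symbol from the 55357 genes counted in each library. All 9 had counts above 0 in all 12 libraries. Messenger RNA was sequenced from E17.5 mouse embryos, from cortex with hippocampal formation, dissected free of the ventral forebrain and split into a rostral and a caudal part. Knockout embryos carried Nestin-Cre, which acts in neural progenitors, and floxed Egfr on both chromosomes (Nestin-EgfrF/F), and control embryos carried one floxed and one unfloxed allele (EgfrF/+). The titles give 3 libraries each to knockout caudal, control caudal, knockout rostral and control rostral, from knockout embryos numbered 5, 2 and 7 and control embryos numbered 1, 3 and 9, and values below follow that order of embryos. The floxed allele was thus present in both genotypes; whether controls carried Cre is not given in the sources used here, so loss of Egfr and the Cre transgene cannot be told apart.

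Microglia are the resident macrophages of the brain. They descend from yolk sac progenitors, not from the neural progenitors in which Nestin-Cre acts, and they enter the cortex before birth. Csf1r is the receptor for the growth factors Csf1 and Il34, on which their survival depends. Cx3cr1 binds the neuronal chemokine fractalkine, P2ry12 senses nucleotides released by other cells, and Tmem119 is a membrane protein used to tell microglia from other macrophages. C1qa, C1qb and C1qc encode the chains of C1q, which starts the classical complement cascade and tags synapses for removal. Trem2 is a lipid-sensing receptor that signals through Tyrobp, and Aif1 encodes the actin-binding protein Iba1.

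The 3 C1q genes lie side by side on the reverse strand of chromosome 4 in the files' GRCm39 annotation, C1qb at 136607440 to 136613498, C1qc at 136617115 to 136620376 and C1qa at 136623228 to 136626114. P2ry12 lies on chromosome 3, Tmem119 on chromosome 5, Cx3cr1 on chromosome 9, and Aif1 and Trem2 on chromosome 17. None of the 9 genes shares exonic bases with another gene on its strand in that annotation.

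Promoter sequences from RefSeq (build GRCm38.p6), from 250 bases before to 50 after the start, were matched to 6 of the 9 genes. They were searched on both strands for AGGAAGT, which reads ACTTCCT on the other strand, letters of the site bound by PU.1 (Spi1), the ETS factor that macrophage genes are known to depend on. The letters occurred in 3 of the 6, C1qb, C1qc and P2ry12, and in 9.35% of the 32851 promoters of all genes. Those 3 are shown, with the letters in capitals, because they hold the match and because the C1q genes and P2ry12 varied differently between libraries. They read 5′ to 3′ on the gene's own strand and come from chr4:136886151-136886450 for C1qb, chr4:136892865-136893164 for C1qc and chr3:59262936-59263235 for P2ry12, each on the reverse strand.
C1qb: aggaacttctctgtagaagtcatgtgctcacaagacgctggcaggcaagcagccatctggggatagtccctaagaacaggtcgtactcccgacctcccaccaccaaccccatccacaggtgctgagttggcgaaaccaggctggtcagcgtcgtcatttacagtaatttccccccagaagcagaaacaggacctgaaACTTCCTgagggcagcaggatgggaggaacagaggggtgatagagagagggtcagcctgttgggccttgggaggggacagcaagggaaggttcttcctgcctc
C1qc: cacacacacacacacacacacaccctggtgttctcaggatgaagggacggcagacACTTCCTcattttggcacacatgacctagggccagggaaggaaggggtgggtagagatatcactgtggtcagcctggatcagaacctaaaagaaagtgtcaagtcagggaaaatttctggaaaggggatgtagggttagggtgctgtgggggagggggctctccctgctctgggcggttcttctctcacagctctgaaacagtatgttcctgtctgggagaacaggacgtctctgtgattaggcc
P2ry12: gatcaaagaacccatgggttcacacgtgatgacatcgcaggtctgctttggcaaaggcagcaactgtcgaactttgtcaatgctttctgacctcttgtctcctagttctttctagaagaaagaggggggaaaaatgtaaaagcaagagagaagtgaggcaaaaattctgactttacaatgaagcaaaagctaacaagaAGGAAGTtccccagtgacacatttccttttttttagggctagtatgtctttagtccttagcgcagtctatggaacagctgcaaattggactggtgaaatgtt
The first letter of the match lay 53 bases before the start in C1qb, 52 in P2ry12 and 195 in C1qc. The search was chosen after values had been seen, and a match of letters does not show binding.

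The genotype labels were borne out by Egfr. Egfr averaged 6.41 ± 0.836 CPM (counts scaled to a total of 1000000 per library) in knockout and 36.1 ± 5.90 CPM in control libraries titled caudal, and 5.13 ± 1.68 CPM in knockout and 25.4 ± 5.96 CPM in control libraries titled rostral (SD, n = 3 each). The titles of embryo and part were not borne out. Libraries were compared only within a genotype, over 10 autosomal genes that were on or off in a library. Every library was most like one that was not its titled partner. It shared 9 or 10 of the 10 states with that library and 5 to 7 with the partner. Those matches were rostral 5 with rostral 2, rostral 7 with caudal 5 and caudal 2 with caudal 7 in the knockout, and rostral 1 with rostral 3, rostral 9 with caudal 1 and caudal 3 with caudal 9 in the control. Nr2f1, a transcription factor higher in caudal than in rostral cortex, ran from 71.3 to 348 CPM in knockout libraries titled caudal and from 97.1 to 340 CPM in knockout libraries titled rostral. In control libraries it ran from 58.6 to 373 CPM where titled caudal and from 50.7 to 348 CPM where titled rostral. Within matching pairs, Nr2f1 was at 97.1 and 340 CPM in knockout rostral 5 and 2, and at 71.3 and 348 CPM in knockout caudal 2 and 7. Control pairs held 78.9 and 348 CPM (rostral 1 and 3), 50.7 and 343 CPM (rostral 9 and caudal 1) and 58.6 and 373 CPM (caudal 3 and 9). Knockout rostral 7 and caudal 5 lay closer, at 205 and 248 CPM. Whether a matching pair holds both parts of 1 embryo was not tested. Knockout libraries titled caudal held Xist (324 to 426 CPM) and almost no Y chromosome transcripts (at most 0.0658 CPM). The same held for knockout rostral 7 (450 and 0.0179 CPM). Knockout rostral 5 and 2 held Y transcripts (152 and 162 CPM) and almost no Xist. Control rostral 9 and caudal 1 held Y transcripts (172 and 178 CPM) and no Xist. Control caudal 3 and 9 held mainly Xist (488 and 253 CPM). Control rostral 1 and 3 held both Xist (230 and 278 CPM) and Y transcripts (94.6 and 92.0 CPM). No sex is assigned to these libraries, and whether they hold material of more than 1 embryo was not tested. Sex thus differed within and between groups, and its part was not tested. The words caudal and rostral below therefore mean the titles only, libraries of a group may share an embryo, and the p-values, which measure the spread between these libraries, may then be too small.

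Per length, in TPM (counts over gene length, scaled to the same total), C1qb and C1qa stood highest at means of 30.4 ± 11.02 and 29.0 ± 9.46 TPM (SD, n = 12 libraries), and C1qb exceeded C1qa in 6 of the 12 libraries. Csf1r at 19.3 ± 4.98, C1qc at 18.3 ± 5.18 and Cx3cr1 at 17.7 ± 4.40 TPM formed a middle group whose neighbours in order changed places, with Csf1r above C1qc in 7 and C1qc above Cx3cr1 in 7 of 12 libraries. P2ry12 followed at 14.5 ± 4.01 TPM, below Cx3cr1 in 10 of 12 libraries. Tmem119, Aif1 and Trem2 were low, at 3.63 ± 0.520, 2.62 ± 0.970 and 1.76 ± 0.654 TPM. P2ry12 was above Tmem119 in all 12 libraries, a step larger than the spread between libraries. Aif1 rested on 20 to 96 counts per library, Trem2 on 41 to 161 and Tmem119 on 53 to 102, against 609 to 1631 for Csf1r, so the low genes carry the largest counting error.

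Knockout and control were first compared in the libraries titled caudal, and no microglia gene passed the test there. In this comparison edgeR called 8 of 16964 genes (0.0472%) at an adjusted p under 0.05, and none of the 9. It called 2 genes without knockout library 5, 4 without knockout library 7 and 5 without control library 9. Of the 9 fitted log2 fold changes, 7 were below 0, with a median of -0.27, against -0.0012 over all genes tested. That median was -0.05 without control library 9, -0.13 without knockout library 2 and -0.37 without knockout library 5. Fewer cells of a type and less RNA per cell cannot be told apart in such bulk libraries.

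Csf1r was at 39.6, 36.3 and 36.9 CPM in knockout caudal libraries, against 41.8, 45.5 and 57.3 CPM in control caudal libraries. Cx3cr1 was at 29.5, 25.6 and 26.8 CPM in knockout caudal libraries, against 32.5, 30.9 and 37.6 CPM in control caudal libraries. For both receptors, all 3 knockout libraries lay below all 3 control libraries. The fitted log2 fold change was -0.35 for Csf1r (SE 0.13, 95% interval -0.65 to -0.05, adjusted p = 0.915) and -0.29 for Cx3cr1 (SE 0.11, 95% interval -0.54 to -0.05, adjusted p = 0.902), so neither passed over all genes. These 2 of 9 genes lay lower without overlap, as did 6.14% of all genes tested. The 9 genes varied together, so the 2 are not separate observations.

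The other homeostatic markers did not separate. P2ry12 was at 13.4, 15.2 and 14.1 CPM in knockout caudal libraries, against 14.7, 14.8 and 16.1 CPM in control caudal libraries (log2 fold change -0.09, 95% interval -0.34 to 0.17). Tmem119 was at 3.36, 3.13 and 2.62 CPM in knockout caudal libraries, against 3.09, 2.95 and 2.96 CPM in control caudal libraries (log2 fold change 0.03, 95% interval -0.38 to 0.44). Both pairs of groups overlapped, and for P2ry12 the interval reached a decrease of 0.34 on the log2 scale.

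Among the C1q chains, knockout caudal library 5 stood above the other 2 knockout libraries. C1qa was at 14.98, 7.29 and 8.24 CPM in knockout caudal libraries, against 10.9, 9.96 and 12.2 CPM in control caudal libraries. C1qb was at 14.9, 9.28 and 10.04 CPM in knockout caudal libraries, against 11.8, 12.02 and 18.1 CPM in control caudal libraries. C1qc was at 14.6, 9.39 and 10.04 CPM in knockout caudal libraries, against 13.4, 13.3 and 17.3 CPM in control caudal libraries. Knockout libraries 2 and 7 lay below all 3 control libraries for each chain, while knockout library 5 lay within or above them. Trem2 behaved likewise, at 4.34, 2.37 and 2.93 CPM in knockout and 3.66, 3.54 and 4.50 CPM in control caudal libraries. Aif1 was at 1.94, 0.764 and 1.09 CPM in knockout and 1.04, 1.07 and 1.15 CPM in control caudal libraries, and library 5 was again highest.

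**Figure D1:**
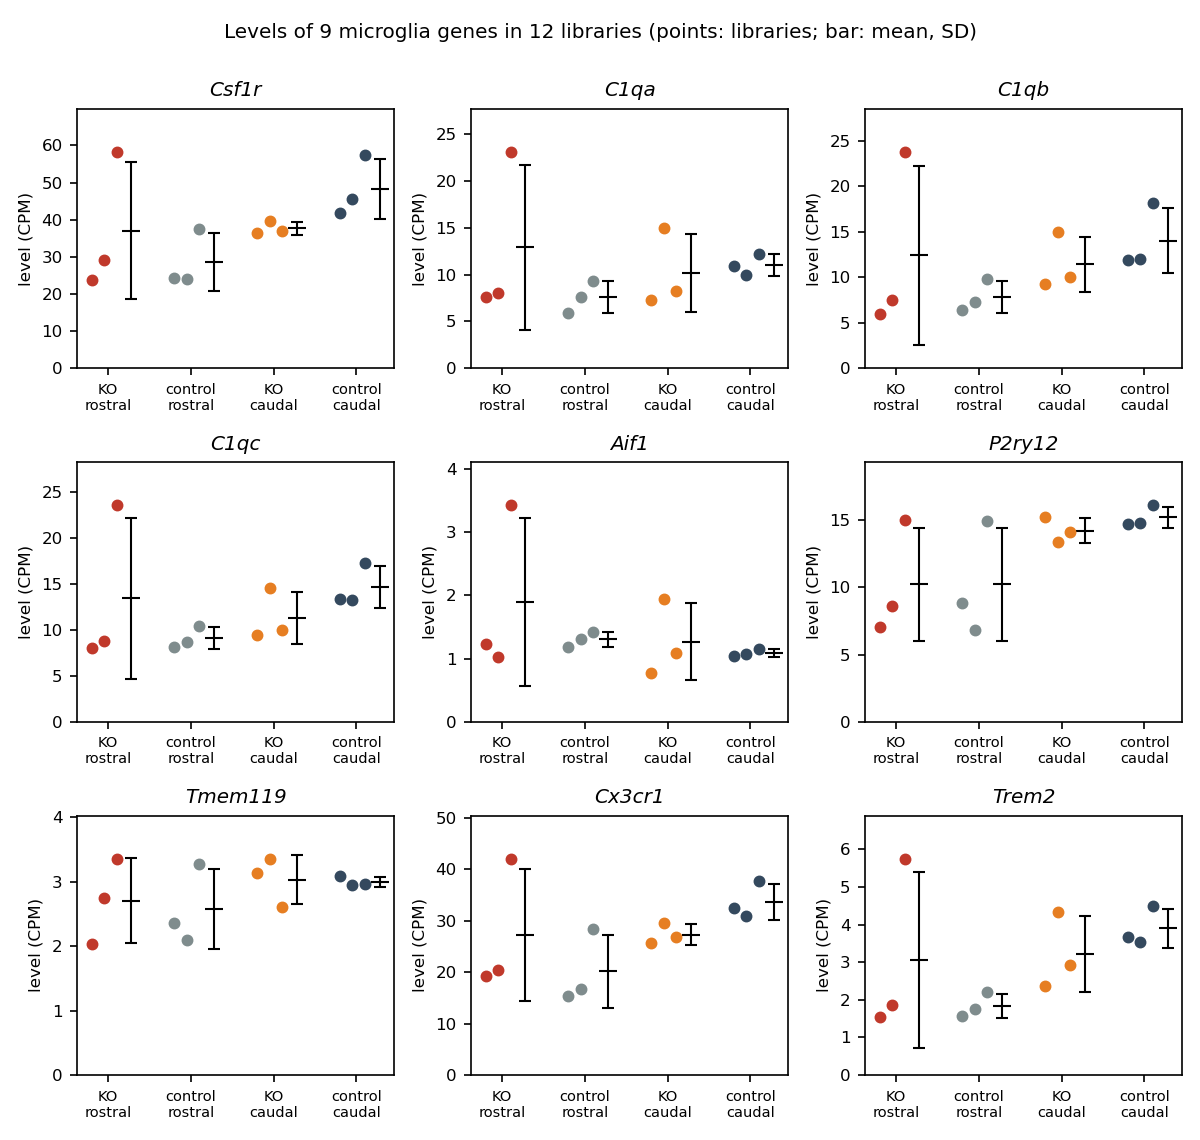
Levels in CPM of the 9 microglia genes in each library, by genotype and titled part, each panel with its own axis from 0; points are libraries (within a group in ascending title number), and bars give the mean and SD of 3. Knockout rostral library 7 is the highest of the 12 for 7 of the genes, and knockout caudal libraries of Csf1r and Cx3cr1 lie below the control caudal ones.

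In libraries titled rostral the fitted differences pointed the other way, and they rested on 1 knockout library. None of the 9 genes was called, nor was any of 17131 genes tested (0.0%) by edgeR, with 180 genes at an unadjusted p under 0.05; DESeq2 called 4. Egfr itself had a log2 fold change of -2.27 (SE 0.30, adjusted p = 1.00) in this fit. All 9 microglia genes' fitted log2 fold changes were above 0, with a median of 0.58. Without knockout library 7 the median was -0.10 and 8 of the 9 lay below 0.

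Csf1r was at 29.2, 23.8 and 58.2 CPM in knockout rostral libraries, against 24.2, 24.1 and 37.6 CPM in control rostral libraries. Cx3cr1 was at 20.4, 19.2 and 42.0 CPM in knockout rostral libraries, against 15.4, 16.8 and 28.3 CPM in control rostral libraries. P2ry12 was at 8.64, 7.03 and 14.99 CPM in knockout rostral libraries, against 8.86, 6.86 and 14.9 CPM in control rostral libraries. In each case the groups overlapped, and in both genotypes 1 library, knockout 7 or control 9, stood well above the other 2.

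For the complement chains the knockout library 7 stood further out. C1qa was at 8.06, 7.59 and 23.1 CPM in knockout rostral libraries, against 5.88, 7.65 and 9.35 CPM in control rostral libraries. C1qb was at 7.54, 5.94 and 23.7 CPM in knockout rostral libraries, against 6.41, 7.29 and 9.76 CPM in control rostral libraries. C1qc was at 8.79, 8.01 and 23.6 CPM in knockout rostral libraries, against 8.17, 8.70 and 10.5 CPM in control rostral libraries. Knockout libraries 5 and 2 lay inside or close to the control range, and library 7 lay above every control library of either part for all 3 chains. Trem2 was at 1.87, 1.54 and 5.75 CPM in knockout and 1.56, 1.74 and 2.20 CPM in control rostral libraries. Aif1 was at 1.03, 1.22 and 3.43 CPM in knockout and 1.18, 1.31 and 1.42 CPM in control rostral libraries. Tmem119 varied less, at 2.75, 2.03 and 3.36 CPM in knockout and 2.37, 2.10 and 3.28 CPM in control rostral libraries.

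When both parts of each titled embryo were summed, the genotypes overlapped for all 9 genes and none was called, where edgeR called 6 of 18935 genes (0.0317%), Egfr among them at a log2 fold change of -2.39 (SE 0.17, adjusted p = 0.00553). It called 2 genes without knockout embryo 5, Egfr no longer among the calls (adjusted p = 0.0782), 21 without knockout embryo 2 and 10 without control embryo 3. Csf1r differed by -0.01 on the log2 scale (95% interval -0.58 to 0.57), P2ry12 by -0.04 (-0.43 to 0.36) and Cx3cr1 by 0.05 (-0.47 to 0.57). The C1q chains had wider intervals. C1qa differed by 0.36 (-0.32 to 1.04), C1qb by 0.17 (-0.66 to 1.01) and C1qc by 0.11 (-0.51 to 0.73). Tmem119 had the narrowest interval at 0.07 (-0.27 to 0.41), Trem2 differed by 0.17 (-0.49 to 0.84), and Aif1 had the largest fitted difference at 0.46 (-0.22 to 1.13). Most of these intervals reach past a difference of 0.5 in at least one direction, so the data do not show that the genotypes are alike. Since no library matched its titled partner, each sum joins libraries of different matched pairs. Every pair of sums within a genotype holds both libraries of a matching pair, so the sums are not separate embryos by that measure. Their intervals may then be too narrow and their p-values too small. The spread that edgeR fitted (biological coefficient of variation) was 0.111 between sums, against 0.223 between rostral and 0.180 between caudal libraries.

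**Figure D2:**
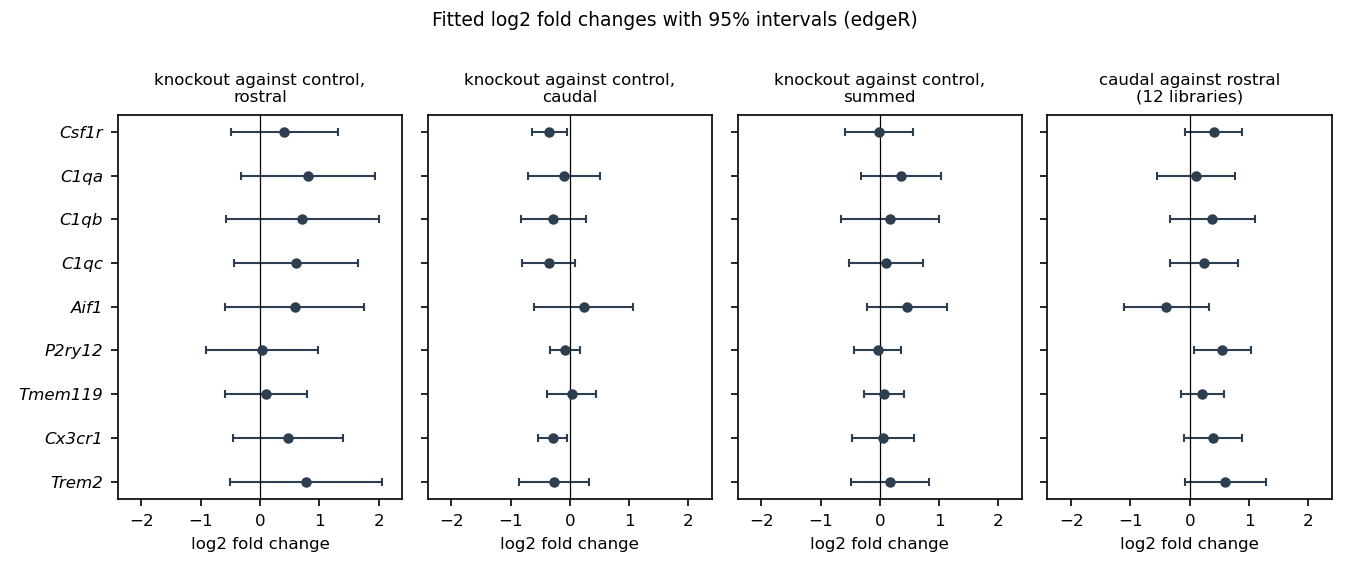
Fitted log2 fold changes of the 9 genes with 95% intervals from edgeR's quasi-likelihood fits, for knockout against control in libraries titled rostral, libraries titled caudal and their sums (3 against 3 each), and for caudal against rostral over 12 libraries. Intervals of Csf1r and Cx3cr1 in caudal libraries and of P2ry12 between the parts exclude 0 before adjustment; none passed after it.

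Caudal and rostral libraries were compared over both genotypes, by title. None of the 9 genes was called, nor was any of 17734 genes (0.0%) by edgeR, with 1765 at an unadjusted p under 0.05, while DESeq2 called 67; edgeR called 1 without control embryo 1 and 6 without control embryo 9. Of the 9 log2 fold changes 8 were above 0, with a median of 0.38, led by Trem2 at 0.60 (SE 0.31, adjusted p = 0.550) and P2ry12 at 0.55 (SE 0.22, adjusted p = 0.460). Aif1 was the exception at -0.39 (SE 0.32). The median was 0.18 without knockout embryo 5, 0.64 without knockout embryo 7 and 0.13 without control rostral libraries 1 and 3.

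The titled parts overlapped for all 9 genes in knockout libraries, and in control libraries they overlapped for P2ry12 and Tmem119. In the knockout 0 of 9 genes were higher in caudal libraries without overlap, against 6.33% of all genes. Trem2 averaged 3.21 ± 1.02 CPM in caudal and 3.05 ± 2.34 CPM in rostral knockout libraries, and Csf1r 37.6 ± 1.75 and 37.1 ± 18.5 CPM (SD, n = 3 each). In the control, Csf1r, Cx3cr1, C1qa, C1qb, C1qc and Trem2 were higher in all 3 caudal than in all 3 rostral libraries, 6 of 9 genes against 3.03% of all genes. These 6 genes varied together, so they are not separate observations. Aif1 was lower without overlap, as were 5.61% of all genes. Trem2 averaged 3.90 ± 0.521 CPM in caudal and 1.84 ± 0.326 CPM in rostral control libraries, and Csf1r 48.2 ± 8.08 and 28.6 ± 7.77 CPM (SD, n = 3 each).

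The difference between the genotypes in this respect was tested as an interaction and did not pass. All 9 interaction estimates were below 0, with a median of -0.76, and the C1qc estimate, with the smallest p of the 9, was -0.96 (SE 0.52, adjusted p = 0.998). edgeR called 0 of 17734 genes (0.0%), with 486 at an unadjusted p under 0.05, and DESeq2 called 0; edgeR called 1 without control embryo 1 and 6 without control embryo 9. Without knockout embryo 7 the median was -0.03. Since control libraries titled rostral 1 and 3 match each other, as do caudal 3 and 9, the titled part and the matched source cannot be told apart in this contrast. Nr2f1 differed within both of those pairs, so the estimates are by title and are not read as differences between cortical parts.

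The 9 genes followed a shared profile over libraries. Their median deviation from each gene's own mean, in log2(CPM + 0.1), was 1.03 in knockout rostral library 7, 0.54 in control caudal library 9 and 0.34 in knockout caudal library 5. It was lowest in control rostral libraries 1 and 3, at -0.58 and -0.52, and in knockout rostral libraries 2 and 5, at -0.51 and -0.34. Pearson's r of a gene with the mean of the other 8 over 12 libraries was 0.980 for C1qb, 0.944 for Cx3cr1 and 0.942 for Csf1r, and 0.503 for Aif1. These libraries share depth and groups, so the correlations are descriptions.

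**Figure D3:**
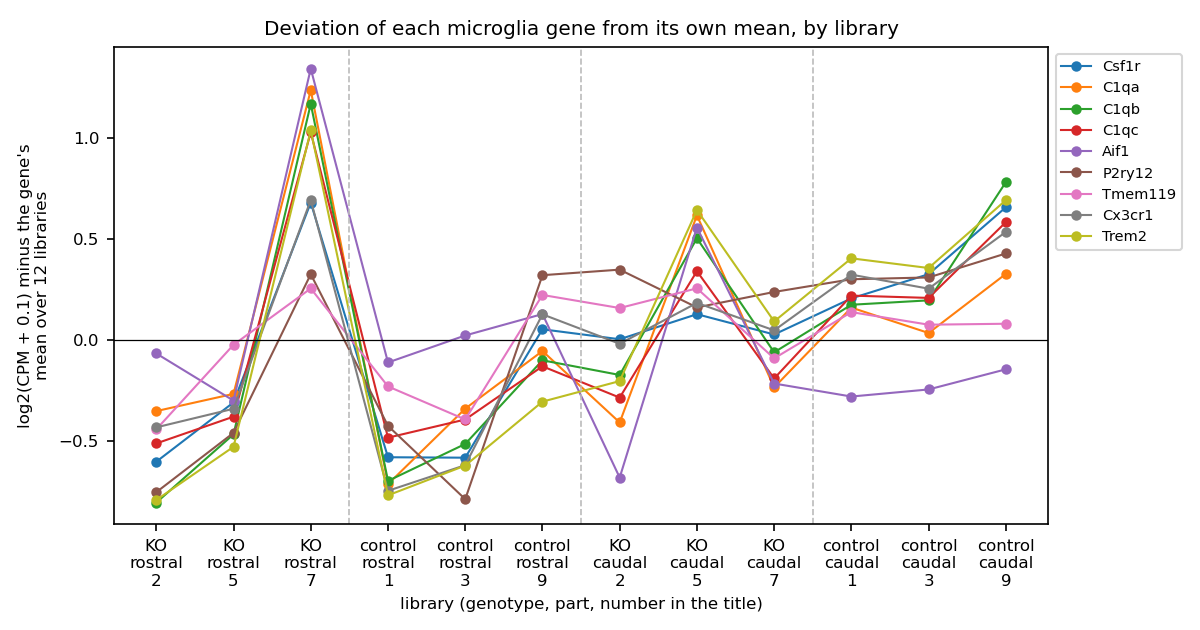
Deviation of each of the 9 genes from its mean over 12 libraries, in log2(CPM + 0.1), with libraries ordered by titled part and genotype and separated by dashed lines. Knockout rostral 7 lies highest and control rostral 1 and 3 and knockout rostral 2 and 5 lie lowest; P2ry12 and Tmem119 spread less than the C1q genes.

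The profile went with the matched libraries more closely than with the titled embryos. Within the 6 matching pairs, the median absolute log2 difference over the 9 genes ran from 0.112 in knockout caudal 2 and 7 to 0.554 in knockout rostral 7 and caudal 5. Within the 6 titled pairs it ran from 0.409 in control embryo 9 to 0.949 in knockout embryo 7. Both sets use the same 12 libraries, and titled pairs always cross the titled parts, so this is a description with no test.

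**Figure D4:**
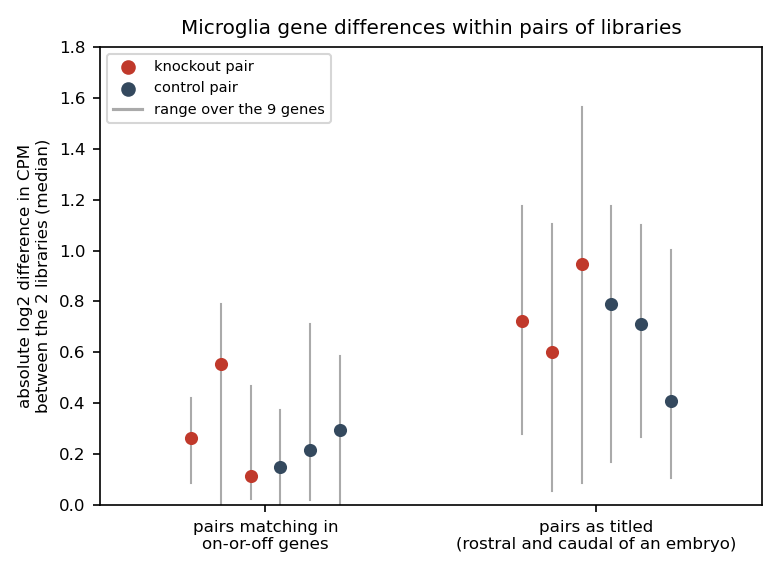
Median absolute log2 difference in CPM of the 9 genes between the libraries of a pair, for the 6 pairs that match in on-or-off genes and the 6 pairs as titled, with lines for the range over genes. Matching pairs lie between 0.112 and 0.554, and titled pairs between 0.409 and 0.949.

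Ratios between members were steady for some and not for others. Csf1r over Cx3cr1, in CPM, stayed between 1.24 and 1.57 in all 12 libraries, and C1qc over C1qa between 0.973 and 1.41. C1qa over P2ry12 spread 3.22-fold, with 0.932, 1.08 and 1.54 in knockout rostral, 0.664, 1.12 and 0.626 in control rostral, 1.12, 0.479 and 0.584 in knockout caudal and 0.738, 0.672 and 0.759 in control caudal libraries. Aif1 over P2ry12 spread 4.56-fold over the 12 libraries. The highest C1qa over P2ry12 ratio was that of knockout rostral 7, and the lowest that of knockout caudal 2.

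Knockout rostral library 7 and knockout caudal library 5 also held the largest shares of mitochondrial counts, 7.25% and 4.77%, against 1.96% to 3.53% in the other 10. These libraries match each other in on-or-off genes, so they may share an embryo and are not read as separate observations. Their summed erythroid markers stood at 12381 and 8214 CPM, against 4242 to 7466 CPM. The 11 pericyte markers summed to 258 and 160 CPM there, against 94.3 to 171 CPM in the other 10 libraries. The 14 border macrophage markers summed to 45.6 and 34.7 CPM there, and to 16.3 to 53.0 CPM in the other 10 libraries; Cd209f was at 0 in all 12 libraries and 8 of the 14 never reached 1 CPM. The 17 markers of monocytes, neutrophils and other blood leukocytes summed to 8.87 and 4.87 CPM, against 1.77 to 7.04 CPM, with Nkg7 at 0 and 13 never at 1 CPM. The part of these differences in the microglia values was not tested. Without both libraries, 8 of 9 genes were below 0 in rostral and 9 of 9 in caudal libraries, with medians of -0.10 and -0.37, and still none was called. They were also the knockout libraries with the highest median deviations of the 9 genes, 1.03 and 0.34. A downward shift was therefore built into leaving them out, and no conclusion is drawn from it.

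Genes at a mean of at least 1 CPM numbered 14786, and predicted genes, Rik genes and pseudogenes among them are not named. Of the rest, Adgre1, which encodes the macrophage antigen F4/80, had the highest Pearson's r to the mean profile over 12 libraries, at 0.986. The lysosomal protease Ctss came next at 0.978, then Fcrls at 0.977 and Laptm5 at 0.966. These 4 are on the wider list of microglia markers below. Dock2, Ube2l6, Cyth4 and Arhgap30, which are on none of the lists, followed at 0.959 to 0.962. In all, 72 of the 14786 genes exceeded 0.9, counted with the kinds that are not named.

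A wider list of 39 microglia markers was set beside the 9. In caudal libraries 35 of 39 fitted differences between knockout and control were below 0 (median -0.25), in rostral libraries 37 of 38 were above 0 (median 0.48), and in the sums 29 of 39 were above 0 (median 0.11), with none called. Summed over the list, rostral libraries stood at 398, 387 and 745 CPM in the knockout, against 362, 397 and 514 CPM in the control. Knockout libraries 5 and 2 thus lay within the control range, and library 7 above it. Fcgr1, an Fc receptor, had the smallest p in the sums (log2 fold change 0.51, SE 0.25, adjusted p = 1.00). Of 12 genes listed as microglia transcription factors, 12 lay below 0 in caudal libraries and 9 above 0 in rostral libraries, and none was called. Summed over that list, knockout rostral 7 and caudal 5 stood lowest, at 271 and 254 CPM, against 290 to 512 CPM in the other 10 libraries. The list thus did not follow the 9 genes there, and it is not read as a measure of microglia. In the sums of titled embryos Sall3, a zinc finger factor, differed by -0.29 (SE 0.08, adjusted p = 1.00, and 0.0345 with no filter on low counts). Sall3 libraries overlapped, at 19.1 to 54.3 CPM in knockout and 31.8 to 59.4 CPM in control (n = 6 each). The Ikaros factor Ikzf1 differed by -0.35 in the sums (SE 0.12, adjusted p = 1.00).

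The partners of the 9 genes gave no call either. Of 11 tested genes of Trem2 and Tyrobp signalling, 5 were above and 6 below 0 in the sums (median -0.01). Of 19 complement genes outside C1q, 7 were above and 12 below 0 (median -0.09). C1s1, a protease that partners C1q in the C1 complex, had a log2 fold change of -1.07 (SE 0.40, adjusted p = 1.00). It was near the floor, at means of 0.110 CPM in knockout and 0.235 CPM in control libraries (n = 6 each). Of 13 ligands and signals to microglia, 9 were above 0 (median 0.02), with Sirpa, an inhibitory receptor on phagocytes, at 0.16 (SE 0.07, adjusted p = 1.00). Of 13 phagocytosis receptors, 8 were above 0 (median 0.04). Of 16 genes of axon tract and proliferative region microglia, 10 were above 0 (median 0.09), and Spp1, which encodes osteopontin, was at 0.65 (SE 0.24, adjusted p = 1.00, and 0.00882 with no filter on low counts).

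Markers of other cells were tested in the same sums, again with 0 called. Of 7 tested border macrophage genes 3 were above 0 (median -0.02), and F13a1 was at -1.08 (SE 0.35, adjusted p = 1.00, and 0.00463 with no filter). Of 6 leukocyte genes 1 was above 0 (median -0.22), and of 10 erythroid genes 8 (median 0.09), with the embryonic globin Hbb-y at -1.46 (SE 0.24, adjusted p = 0.283, and 0.00122 with no filter). Endothelial genes were above 0 in 3 of 14 (median -0.06), pericyte genes in 9 of 11 (median 0.23) and meningeal fibroblast genes in 3 of 10 (median -0.31). Choroid plexus genes were above 0 in 1 of 5 (median -0.56), with Clic6, a chloride channel protein, at -1.74 (SE 0.57, adjusted p = 1.00, and 3.72e-05 with no filter). Control libraries of Clic6 ran from 0.149 to 2.68 CPM. F13a1, Hbb-y and Clic6 were low, at means of 0.684, 0.337 and 0.278 CPM in knockout libraries. In control libraries they averaged 1.52, 0.919 and 1.00 CPM (n = 6 each), so their fold changes rest on few counts. Ventral forebrain and striatum genes were above 0 in 0 of 13 (median -0.64), and proliferation genes in 1 of 10 (median -0.05). By titled part, several of these lists had most values below 0 in caudal and above 0 in rostral libraries, as the microglia genes did. Endothelial genes were below 0 in 14 of 14 in caudal libraries and above 0 in 14 of 14 in rostral libraries, pericyte genes in 9 of 11 and 11 of 11, and meningeal fibroblast genes in 6 of 8 and 8 of 8. Border macrophage genes did so in 5 of 5 and 5 of 5, leukocyte genes in 4 of 4 and 2 of 2, and erythroid genes in 9 of 10 and 8 of 10. Proliferation genes lay the other way, above 0 in 10 of 10 in caudal and below 0 in 10 of 10 in rostral libraries. The part of these cell types in the microglia values was not tested.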

How the data were processed

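The 12 libraries were grouped by their titles. The submitters' processing notes name STAR 2.7.8a, GRCm39 and featureCounts 2.0.3. Per the file headers, fragments on the reverse strand of GENCODE mouse release 28 genes were counted, with fractions for reads of several places or genes. Per gene, the deposited files thus hold expected counts, not normalized, with 25223733 to 30383672 per library. The deposited length column was used for TPM.

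Rounded counts went into edgeR 4.0.16 under R 4.3.3 (TMM, filterByExpr, robust quasi-likelihood, Benjamini-Hochberg adjusted p under 0.05), after the tests were checked on simulated data. Levels are CPM of the deposited counts. Main fits had no embryo term. Same-numbered libraries deviated from their group means with correlations of -0.455, -0.630 and -0.507 (knockout 5, 2 and 7) and -0.253, -0.709 and -0.619 (control 1, 3 and 9) over 1000 autosomal genes, 0 of 6 over 0.1. On-or-off genes were below 0.05 CPM where off and above 0.5 CPM where on.

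The members, the 16 further lists and the tests were chosen with earlier results of these data known. Named are the 9 genes, Egfr, up to 2 genes per list by smallest p in the sums (not all printed) and the 8 most alike. Predicted genes, Rik genes and pseudogenes were left out of the named genes. Nr2f1, Xist and the list genes named for levels were chosen after their values were seen. DESeq2 1.42.0, DESeq2 size factors, no filter, rounding down, the title number or embryo as a block, 1 fit of all libraries and leaving out libraries were tried.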

Additional observations from a re-analysis of the deposited data

How the results depend on the processing

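None of the 9 microglia genes was called in any of 603 values under the alternatives, where the lowest adjusted p was 0.149, but 67 of the 603 changed sign. The fit without knockout rostral 7 and knockout caudal 5 was chosen after seeing the data, and in the sums it leaves 1 knockout embryo, assumed to vary like the others. The titled pairing was not borne out, and with the titled embryo as a block 0 genes were called between parts and 0 for the interaction. The cause of the changes below was not tested.

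Counts of called genes moved as follows. In rostral libraries, where 0 were called, DESeq2 called 4, the unfiltered fit 2 and the fit of all 12 libraries 2. In caudal libraries, where 8 were called, they gave 75, 57 and 3, the fit without knockout rostral 7 and caudal 5 gave 2, and leaving out 1 embryo gave 2 to 8. In the sums, where 6 were called, DESeq2 called 32, the unfiltered fit 113 and the fit without those 2 libraries 3, and leaving out 1 embryo gave 2 to 21. Between parts, DESeq2 called 67, the unfiltered fit 2, and leaving out 1 embryo gave 0 to 6, as it did for the interaction. Unfiltered, Spp1, F13a1, Hbb-y, Clic6 and Sall3 were called in the sums at adjusted p of 0.00882, 0.00463, 0.00122, 3.72e-05 and 0.0345. The calls of F13a1, Hbb-y and Clic6 rest on the low levels given above, and libraries of Spp1 and Sall3 overlapped between the genotypes. Egfr lost its call without knockout embryo 5 in caudal libraries (adjusted p = 0.0501) and in the sums (0.0782), and gained one in rostral libraries with DESeq2 (6.08e-10) and with all 12 libraries in 1 fit (0.0204).

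Log2 fold changes that turned sign are given by what was left out. Over single embryos left out, rostral values ran from -0.10 to 0.68 for Csf1r, -0.20 to 1.05 for C1qb, -0.10 to 0.88 for C1qc, -0.19 to 0.89 for Aif1, -0.37 to 0.44 for P2ry12, -0.10 to 0.34 for Tmem119, -0.012 to 0.82 for Cx3cr1 and -0.089 to 1.10 for Trem2. Caudal values ran from -0.48 to 0.091 for C1qa, -0.20 to 0.50 for Aif1 and -0.038 to 0.12 for Tmem119. Values of the sums ran from -0.24 to 0.18 for Csf1r, -0.19 to 0.43 for C1qb, -0.20 to 0.32 for C1qc, -0.20 to 0.14 for P2ry12, -0.18 to 0.23 for Cx3cr1, -0.15 to 0.44 for Trem2, -0.21 to 0.021 for Elmo1, -0.090 to 0.69 for Ccr2 and -0.20 to 0.012 for Plk1. Between parts they ran from -0.20 to 0.55 for C1qa and -0.76 to 0.040 for Aif1. Interaction values ran from -1.08 to 0.52 for Aif1, -0.47 to 0.29 for P2ry12, -0.30 to 0.22 for Tmem119 and -0.52 to 0.10 for Egfr.

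Without knockout rostral 7 and caudal 5, rostral values were -0.10 for Csf1r, -0.20 for C1qb, -0.10 for C1qc, -0.19 for Aif1, -0.37 for P2ry12, -0.10 for Tmem119, -0.012 for Cx3cr1 and -0.089 for Trem2, and caudal values -0.20 for Aif1 and -0.038 for Tmem119. In the sums they were -0.32 for C1qa, -0.53 for C1qb, -0.45 for C1qc, -0.25 for Aif1, -0.13 for Tmem119, -0.28 for Cx3cr1, -0.57 for Trem2, -0.072 for Apoe, 0.10 for Pik3cd, 0.039 for Sez6, -0.029 for Axl and -0.081 for Abcc9, and for the interaction 0.34 for P2ry12, 0.055 for Tmem119 and 0.17 for Egfr. Without control rostral 1 and 3, rostral values were -0.013 for Csf1r, -0.54 for P2ry12, -0.27 for Tmem119 and -0.050 for Cx3cr1, values of the sums -0.19 for C1qb, -0.13 for C1qc, -0.11 for Tmem119, -0.25 for Cx3cr1, -0.059 for Trem2, 0.081 for Pik3cd and 0.021 for Elmo1, the value between parts -0.051 for C1qa, and interaction values 0.47 for P2ry12, 0.31 for Tmem119 and 0.12 for Egfr. With all 12 libraries in 1 fit, Csf1r was at 0.036 in the sums' contrast.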
